A study of Mus musculus with 16 samples.

Results

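A set of 9 genes is described here: the Six-family members Six2, Six4 and Six5, the Eya family members Eya1, Eya2, Eya3 and Eya4, and the Dach family members Dach1 and Dach2. They were chosen by name and are 9 of the 35613 genes that the files cover. RNA was sequenced from 16 libraries of primary mouse skeletal muscle cells of the genotype Pax7-nGFP, in which a nuclear green fluorescent protein reports Pax7, a transcription factor of muscle stem cells. Every library carries this reporter. Of the libraries, 15 form 5 groups of 3 biological replicates from parental lines of male animals aged 16 weeks. GFP+ MPC were sorted for GFP from a culture that the labels call MPC, a name they do not spell out, and bulk MPC are the same kind of culture unsorted. These cells were myoblasts for 2 to 3 passages, after which MPC medium was used for 5 to 6 passages. It contains 5 µM of forskolin, an activator of adenylyl cyclase, 5 µM of RepSox, an inhibitor of the receptor kinase of TGF-beta, and CHIR9901, as the labels spell it, at 3 µM. Differentiated myoblasts spent 3 days in a low-serum medium and were harvested at passage 4 to 5. GFP+ myoblasts were sorted at passage 5 to 6, and bulk myoblasts were taken at passage 3, both in myoblast medium. A single further library of GFP+ MPC came from a female animal aged 39 weeks, whose GFP- myoblasts of passage 8 spent 2 passages in the MPC medium before the sort for GFP. Medium, serum and passage differ between MPC and myoblast groups. Passage also differs between GFP+ and bulk myoblasts and between differentiated and bulk myoblasts. Sorted cells went through a micro-scale RNA kit and unsorted cells through a mini-scale one. These cannot be told apart from the group.

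Six-family proteins are homeodomain transcription factors that bind the MEF3 motif, a DNA element found in control regions of muscle genes such as myogenin. Eya proteins do not bind DNA themselves: they are coactivators with a protein phosphatase domain, and enter the nucleus with Six-family proteins. Dach proteins, named after the fly gene dachshund, act as cofactors in the same network and are best known as corepressors. In the mouse embryo the network is needed upstream of the myogenic factors in limb and body wall muscle, and in adult muscle Six-family and Eya proteins act on genes of fast fibres.

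Promoters of the 9 genes and of 23 genes reported as Six-family targets were searched for the MEF3 core TCAGGTT on either strand, that is TCAGGTT or AACCTGA, and for the core TGACGT of the cAMP response element, as the MPC medium holds forskolin. The windows came from RefSeq on GRCm38.p6 and run over 300 bases around each start. They covered 7 of the 9 genes, with 10 promoters, and 13 of the 23 target genes, with 16 promoters. Eya1 and Eya2 were not covered. Among the 7 covered genes of the set Six4 alone had a MEF3 core, in 1 of its 2 promoters, and among the 13 covered target genes Myog alone. No covered gene of either set had the TGACGT core. Over all 32851 promoters of the same length, 4.07% held the MEF3 core and 7.51% the TGACGT core. The letters are a match and not a shown binding site. These are the promoters with a match, with the MEF3 core in capitals. That of Six4 lies at chr12:73113196-73113495 on the minus strand, and its core starts at position -97 from the transcription start of that promoter. The other Six4 promoter, at chr12:73113376-73113675, had no match. That of Myog lies at chr1:134289754-134290053 on the plus strand, and its core starts at position -84.
Six4 promoter: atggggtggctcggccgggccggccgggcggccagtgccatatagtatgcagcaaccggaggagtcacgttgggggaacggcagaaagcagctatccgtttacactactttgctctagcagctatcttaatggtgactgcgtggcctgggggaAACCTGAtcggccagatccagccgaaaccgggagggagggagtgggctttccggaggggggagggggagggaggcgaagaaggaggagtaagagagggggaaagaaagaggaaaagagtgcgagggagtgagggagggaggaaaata
Myog promoter: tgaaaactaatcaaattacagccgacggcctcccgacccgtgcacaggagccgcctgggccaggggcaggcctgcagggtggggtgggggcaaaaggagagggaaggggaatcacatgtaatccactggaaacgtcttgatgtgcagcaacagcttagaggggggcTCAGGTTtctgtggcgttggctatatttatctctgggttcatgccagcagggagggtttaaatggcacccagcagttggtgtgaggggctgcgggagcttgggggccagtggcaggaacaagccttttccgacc

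Eya4 has a pair of alternative coding exons of equal length, which its transcripts carry one at a time, and the share of the exon of Eya4-208 was higher in sorted than in unsorted libraries (values after the gene comparisons). Both exons are 101 bases long and lie on the minus strand of chromosome 10. In the GENCODE M21 annotation, transcripts Eya4-202 and Eya4-206 hold the first, transcripts Eya4-201 and Eya4-208 hold the other, and none holds both. The deposited data quantify 7 of the 8 annotated Eya4 transcripts. Eya4-201 is not among them, so the share of its exon rests on Eya4-208 alone. The exons differ at 30 of the 101 bases (70.3% identity). They are shown because reads that cover the differing bases, in capitals, are what tells these transcripts apart within the exon.
Exon of Eya4-202: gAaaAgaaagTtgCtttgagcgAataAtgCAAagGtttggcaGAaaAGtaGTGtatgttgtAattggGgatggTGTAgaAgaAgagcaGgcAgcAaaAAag
Exon of Eya4-208: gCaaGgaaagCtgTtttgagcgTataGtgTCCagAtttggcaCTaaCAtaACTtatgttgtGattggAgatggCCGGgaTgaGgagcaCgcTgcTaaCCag

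Libraries held 19.3 to 29.1 M estimated counts (M, 10 to the power 6). Levels are given in CPM, counts scaled to a library of 1 M, where each library size is first adjusted by a scaling factor (TMM). Pax7 averaged 767 CPM in GFP+ MPC, 86.6 in bulk MPC, 45.3 in differentiated myoblasts, 908 in GFP+ myoblasts and 580 in bulk myoblasts. Embryonic myosin (Myh3), a gene of differentiating muscle cells, averaged 281, 20000, 25800, 77.6 and 8110 CPM in the same 5 groups, so the sorted cells had little of it and the unsorted cultures much. Markers of endothelium summed to 1.21 to 3.23 CPM and those of macrophages and leukocytes to 0.587 to 3.67 CPM in the replicated libraries. Schwann cell markers summed to 1.86 to 15.1 CPM, with Sox10 at 0 counts in GFP+ MPC, differentiated myoblasts and GFP+ myoblasts. Of that list Foxd3 averaged 6.67 CPM in bulk MPC and at most 0.105 in the other replicated groups. The group means of Mbp were 0.264 CPM (GFP+ MPC), 1.24 (bulk MPC), 0.501 (differentiated), 10.1 (GFP+ myoblasts) and 5.49 (bulk myoblasts). Fibroblast markers summed to 86.1 to 120 CPM in GFP+ MPC, 151 to 280 in bulk MPC, 187 to 212 in differentiated myoblasts, 102 to 145 in GFP+ myoblasts and 159 to 244 in bulk myoblasts. Gsn made up most of each group's sum, with a mean of 94.9 CPM in GFP+ MPC, 175 in bulk MPC, 186 in differentiated myoblasts, 121 in GFP+ myoblasts and 129 in bulk myoblasts. Lum was at 0 counts in each of these groups except bulk MPC. Bulk MPC replicate 2 stood apart, with Pdgfra at 12.5 CPM against 0.652 and 0.553 CPM in replicates 1 and 3, Dcn at 31.4 CPM against 0.0465 and 0.184 CPM, and Col1a1 at 89.3 CPM against 0.0465 and 2.21 CPM. Gsn was the lowest of that group in replicate 2, at 135 CPM against 150 and 241 CPM. Col1a1 was also at 26.3 CPM in differentiated replicate 3 and at 113 CPM in bulk myoblast replicate 3. Tenocyte markers summed to 11.9 to 14.9 CPM in GFP+ MPC, 32.3 to 35.6 in bulk MPC, 72.9 to 82.3 in differentiated myoblasts, 21.8 to 28.3 in GFP+ myoblasts and 46.1 to 66.4 in bulk myoblasts. Outside GFP+ MPC most of each sum was Scx, which averaged 1.59, 21.8, 75.3, 21.0 and 51.6 CPM in these 5 groups. Thbs4 had another order, at 6.75, 10.3, 0.163, 0.394 and 0.771 CPM, and so did Mkx, at 5.34, 2.05, 1.94, 3.96 and 1.59 CPM. Markers of pericytes and smooth muscle summed to 744 to 1110 CPM in GFP+ MPC, 327 to 474 in bulk MPC, 273 to 332 in differentiated myoblasts, 226 to 312 in GFP+ myoblasts and 413 to 476 in bulk myoblasts. In GFP+ MPC nearly all of that was Notch3, at a mean of 936 CPM, while Rgs5 was at 13.4 CPM against 80.5 CPM in GFP+ myoblasts. The part of other cell types in the results was not tested.

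Per length, Eya3, Eya4 and Six4 were abundant in every group, Eya1 and Six2 depended on the group, and Eya2, Six5 and Dach1 were low. The deposited TPM (transcripts per M, which corrects for length) averaged 41.0 for Eya3, 39.4 for Eya1, 33.9 for Eya4 and 17.6 for Six4 in GFP+ MPC. Bulk MPC averaged 42.1 TPM for Eya3, 36.6 for Eya4, 9.46 for Eya1 and 8.70 for Six4, whereas Six2 was at 0.284 TPM. Differentiated myoblasts had 48.7 TPM of Eya3, 30.8 of Eya4, 8.46 of Six4 and 4.17 of Eya1. The order was thus Eya3 first in 4 of the 5 replicated groups. GFP+ myoblasts averaged 43.7 TPM for Eya3, 38.1 for Eya4, 19 for Six4, 13.7 for Six2 and 11.6 for Eya1. Bulk myoblasts averaged 49.9 TPM for Eya4, 40.5 for Eya3, 14.8 for Six4, 7.36 for Six2 and 6.99 for Eya1. Across replicates the sum over the Eya genes was 115 ± 11 TPM in GFP+ MPC, 88.4 ± 1.63 in bulk MPC, 84.2 ± 5.64 in differentiated myoblasts, 96.8 ± 11.7 in GFP+ myoblasts and 103 ± 5.13 in bulk myoblasts (SD, n = 3 each).

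**Figure D1:**
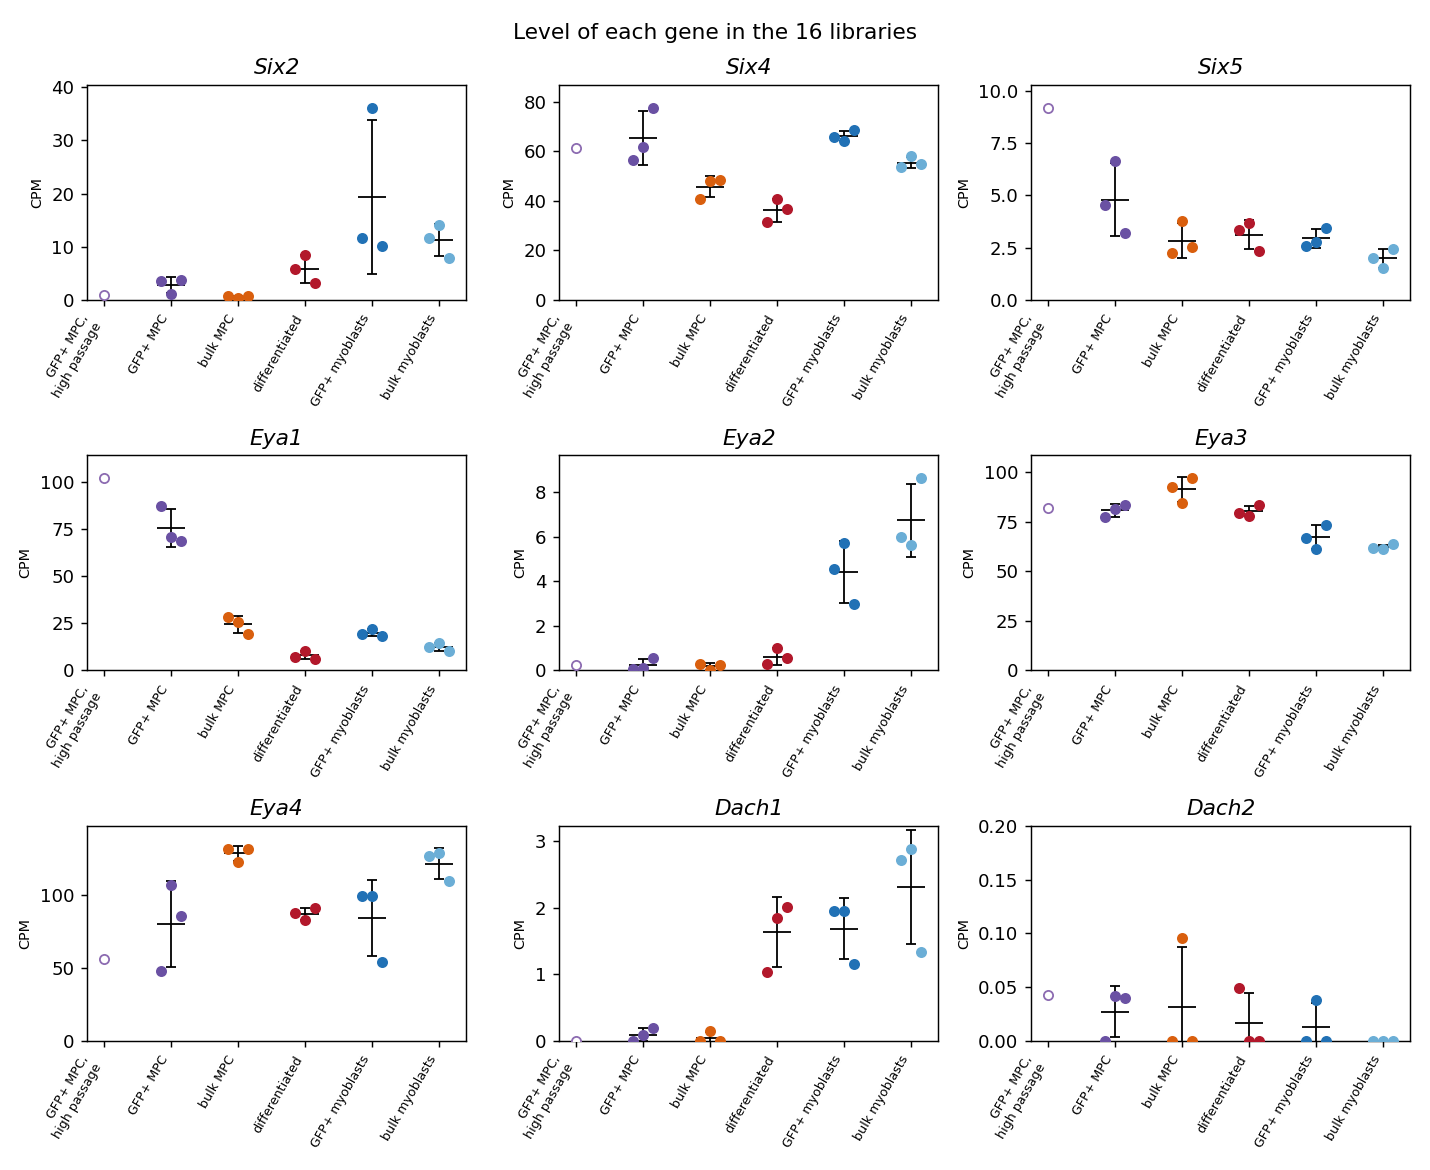
Level of each of the 9 genes in CPM (linear axes that start at 0) in the 16 libraries, with a point for each library and a bar and whiskers for the mean and SD of 3 replicates; the open point is the high-passage library. Eya1 is highest in GFP+ MPC, at 68.5 to 87.5 CPM, and Eya2 and Dach1 lie near 0 in both MPC groups.

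Six2, best known in the mouse for keeping kidney progenitor cells undifferentiated, was low in MPC and high in GFP+ and bulk myoblasts. It stood at 3.53, 1.05 and 3.65 CPM in GFP+ MPC replicates 1 to 3, 0.652, 0.430 and 0.738 CPM in bulk MPC, 5.82, 8.46 and 3.13 CPM in differentiated myoblasts, 11.7, 36.1 and 10.2 CPM in GFP+ myoblasts, and 11.7, 14.1 and 7.96 CPM in bulk myoblasts. All 6 MPC libraries lay below all 6 libraries of GFP+ and bulk myoblasts, and only the bulk MPC group was clear of its neighbour in the order of the means. GFP+ myoblast replicate 2 lay far above the other replicates of its group. The high-passage library had 0.858 CPM, below every GFP+ MPC replicate. Nearly all Six2 counts came from a single transcript, Six2-202, in each group.

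Six4, which acts beside other Six-family factors in mouse muscle development, ran from 31.3 to 77.4 CPM over the replicated libraries. Its values were 56.5, 61.7 and 77.4 CPM in GFP+ MPC, 40.7, 48.1 and 48.3 CPM in bulk MPC, 31.3, 40.7 and 36.5 CPM in differentiated myoblasts, 65.7, 64.1 and 68.4 CPM in GFP+ myoblasts, and 53.6, 57.9 and 54.6 CPM in bulk myoblasts. The sorted groups were highest and overlapped each other, and bulk MPC and differentiated myoblasts, whose nearest libraries both rounded to 40.7 CPM, were lowest. The high-passage library, at 61.1 CPM, lay within the GFP+ MPC range. Six5, the neighbour of the myotonic dystrophy kinase gene Dmpk, was low in all groups. It had 4.53, 6.65 and 3.21 CPM in GFP+ MPC, 2.23, 3.77 and 2.52 CPM in bulk MPC, 3.32, 3.70 and 2.35 CPM in differentiated myoblasts, 2.57, 2.79 and 3.45 CPM in GFP+ myoblasts, and 1.98, 1.54 and 2.44 CPM in bulk myoblasts. Each group overlapped the next in order. The high-passage library lay above all others at 9.18 CPM.

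Eya1, which the mouse needs for ear and kidney and, jointly with Eya2, for limb muscle, was highest in GFP+ MPC among the replicated groups. It stood at 87.5, 71.1 and 68.5 CPM in GFP+ MPC, 28.4, 25.7 and 19.4 CPM in bulk MPC, 7.33, 10.4 and 6.26 CPM in differentiated myoblasts, 19.5, 22.2 and 18.5 CPM in GFP+ myoblasts, and 12.2, 14.5 and 10.4 CPM in bulk myoblasts. GFP+ MPC lay above all other replicated libraries, bulk MPC and GFP+ myoblasts overlapped, and bulk myoblasts lay above differentiated myoblasts, although the nearest libraries of the 2 both rounded to 10.4 CPM. The high-passage library was higher still, at 102 CPM. In TPM bulk MPC ran over 8.04 to 11.1 and GFP+ myoblasts over 11.1 to 12.5, the reverse of the order of their CPM means.

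Eya2, which acts with Eya1 in mouse limb muscle, was low in MPC. It was at 0.0453, 0.0842 and 0.555 CPM in GFP+ MPC, 0.279, 0 and 0.246 CPM in bulk MPC, 0.293, 1.01 and 0.559 CPM in differentiated myoblasts, 4.55, 5.73 and 2.97 CPM in GFP+ myoblasts, and 5.98, 5.62 and 8.61 CPM in bulk myoblasts. In counts, GFP+ MPC held 17 over 3 libraries, bulk MPC 10 and differentiated myoblasts 34, against 357 in GFP+ myoblasts and 535 in bulk myoblasts. The 3 low groups overlapped and lay apart from GFP+ and bulk myoblasts. The high-passage library had 0.257 CPM. The estimated split over transcripts also differed: Eya2-202 took a mean of 98.2% of the estimated Eya2 counts in GFP+ myoblasts and 74.9% in bulk myoblasts, whereas it had 0 estimated counts in GFP+ MPC, bulk MPC and differentiated myoblasts. In differentiated myoblasts 93.3% of the few Eya2 counts went to Eya2-201. These shares are estimates, in the low groups from few counts, and varied between replicates. Eya2-202 ran over 48.4% to 95.7% in bulk myoblasts, and Eya2-201 over 0% to 100% in GFP+ MPC.

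Eya3, the broadly expressed family member, stayed within a narrow range. Its values were 77.2, 81.3 and 83.6 CPM in GFP+ MPC, 92.6, 84.3 and 96.8 CPM in bulk MPC, 79.6, 78.1 and 83.4 CPM in differentiated myoblasts, 66.7, 61.4 and 73.3 CPM in GFP+ myoblasts, and 61.8, 61.1 and 63.6 CPM in bulk myoblasts. In CPM both MPC groups and differentiated myoblasts lay above GFP+ and bulk myoblasts, which overlapped. In TPM GFP+ MPC, at 35.5 to 47.1, overlapped GFP+ myoblasts, at 36.9 to 48.0. Bulk MPC, at 39.9 to 43.9 TPM, likewise overlapped bulk myoblasts, at 38.4 to 42.7. Differentiated myoblasts, at 44.4 to 52.9 TPM, lay above bulk myoblasts but overlapped GFP+ myoblasts. The high-passage library had 81.9 CPM. Eya4, mutated in human hearing loss and heart muscle disease, was among the most abundant members and its sorted groups scattered widely. It had 48.4, 107 and 85.8 CPM in GFP+ MPC, 132, 123 and 132 CPM in bulk MPC, 87.8, 82.9 and 91.3 CPM in differentiated myoblasts, 99.4, 99.6 and 54.1 CPM in GFP+ myoblasts, and 127, 129 and 110 CPM in bulk myoblasts. In CPM, bulk MPC and bulk myoblasts overlapped at the top, and differentiated myoblasts and both sorted groups overlapped below them. In TPM the order was another: bulk MPC, at 34.5 to 38.1, lay below bulk myoblasts, at 45.1 to 52.9, and within the range of GFP+ myoblasts, at 23.0 to 45.8. CPM holds the TMM adjustment, whereas TPM lacks it and corrects for length. Which of these changed the order was not tested. The high-passage library had 56.6 CPM.

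Dach1 was nearly without reads in MPC. It had 0, 2 and 5 estimated counts in GFP+ MPC, 0, 3 and 0 in bulk MPC, 21, 33 and 36 in differentiated myoblasts, 62, 51 and 24 in GFP+ myoblasts, and 81, 60 and 37 in bulk myoblasts. On the CPM scale no MPC library passed 0.198, and no library of the other groups was below 1.03. The high-passage library had 0 counts, which allows up to 0.129 CPM. Dach2 had 6 counts over the 15 libraries and 1 in the high-passage library, so it failed the filter on low counts and was not tested. Its differences were not detectable at this depth. Such limits cover counting error only. In bulk RNA, fewer cells that express a gene and less of its RNA in each cell cannot be told apart.

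GFP+ MPC had more Eya1 and less Six2, Eya2 and Dach1 RNA than GFP+ myoblasts, in the comparison of Pax7 reporter cells between the small-molecule culture and the ordinary one. Of the 8 tested members, 2 were higher and 3 lower in GFP+ MPC at an adjusted p under 0.05, while 48.6% of all 15533 tested genes passed in either direction, 26% higher and 22.7% lower. The members' share of calls, 5 of 8, is no result about them against that background. Eya1 was higher by a log2 fold change of 1.92 ± 0.19 (SE; edgeR quasi-likelihood test, Benjamini-Hochberg adjusted p = 4.67e-06), about 3.79-fold. Six2 was lower at -2.81 ± 0.56 (edgeR adjusted p = 0.00107), and at -1.99 without GFP+ myoblast replicate 2. Eya2 was lower at -4.20 ± 0.72 (edgeR adjusted p = 0.000377). Its ratio of summed counts per TMM-adjusted library size was 18.9-fold, with a 95% counting interval of 11.6 to 32.8. The Eya2 fold change was at -5.96 without GFP+ MPC replicate 3 and -3.37 with counts scaled for transcript length. Dach1, with 7 counts in GFP+ MPC, was lower at -4.04 ± 0.72 (edgeR adjusted p = 0.000517), by 17.6-fold in counts (95% counting interval 8.33 to 44.7), and at -5.11 without GFP+ MPC replicate 3. Eya3 was higher by 0.27 ± 0.08 (edgeR adjusted p = 0.0149). That small difference did not pass in a fit of these groups alone (adjusted p = 0.159), without the low-count filter (0.0532) or without GFP+ myoblast replicate 2 (0.0802), and it was 0.00 with length-scaled counts. Six4 (-0.01 ± 0.12), Six5 (0.72 ± 0.31) and Eya4 (-0.07 ± 0.25) did not pass, though Six5 did at 0.94 without GFP+ MPC replicate 3 (adjusted p = 0.0217). The median over the 8 members was -0.04, against 0.09 over all tested genes.

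Unsorted MPC cultures differed from unsorted myoblasts in the same named members and directions as the sorted cells. Again 2 of 8 members were higher and 3 lower, where 58.5% of all tested genes passed, 28.4% higher and 30.1% lower. This comparison shares no library with the sorted one, but both come from a single fit with a shared estimate of spread. The labels do not state whether sorted and unsorted libraries of the same number share a parental line. Eya1 was higher by 1.00 ± 0.19 (edgeR adjusted p = 0.000633) and Eya3 by 0.57 ± 0.08 (edgeR adjusted p = 7.81e-05). Six2 was lower at -4.20 ± 0.64 (edgeR adjusted p = 0.00011), about 18.4-fold. Eya2 was lower by 40.0-fold in counts (95% counting interval 21.6 to 83.9), or -5.24 ± 0.78 (edgeR adjusted p = 8.37e-05). Its value ran between -4.21 with length-scaled counts and -6.12 with protein-coding transcripts only, was -5.85 without bulk MPC replicate 1 and was -4.63 without replicate 2. For Dach1, with 3 counts in bulk MPC against 178 in bulk myoblasts, the ratio was 44.4-fold lower with a 95% counting interval of 14.9 to 217 (edgeR adjusted p = 0.00011). All 3 counts were in bulk MPC replicate 2. Of the fibroblast markers, that library was the highest of its group in Pdgfra, Dcn, Lum, Dpt, Col1a1 and Ly6a and the lowest in Gsn. It was also the highest of its group in Pax7, at 137 CPM against 66.2 and 56.6 CPM. A link of these to Dach1 was not tested. Without bulk MPC replicate 2 Dach1 was at least 28.5-fold lower, from a floor of 3 counts over the group. Without bulk MPC replicate 1 the fitted value, which depends on the prior count, was -4.76 in place of -5.35. Six4 (-0.26 ± 0.12, adjusted p = 0.0808), Six5 (0.53 ± 0.31) and Eya4 (0.09 ± 0.25) did not pass. Six4 passed without GFP+ MPC replicate 3 (adjusted p = 0.0381). It also passed with the replicate number as a block, at -0.27 (adjusted p = 0.0485), and here, as in no other comparison, the deviations of all 3 same-numbered pairs of libraries correlated above 0.1. With that block 2 members were higher and 4 lower. Members had a median of -0.09, against -0.01 over all genes. Without bulk MPC replicate 2 the count was also 2 higher and 3 lower.

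Differentiated myoblasts had less Eya2, Eya1 and Six4 RNA than bulk myoblasts and more Eya3, and Dach1 did not pass. Differentiated myoblasts were at passage 4 to 5 and bulk myoblasts at passage 3, so here differentiation and passage cannot be told apart. In differentiated against bulk myoblasts, 1 of 8 members was higher and 3 were lower, and 54.2% of all tested genes passed, 25.6% higher and 28.6% lower. Eya2 was lower at -3.43 ± 0.67 (edgeR adjusted p = 0.000768), about 10.8-fold. Six4 was lower at -0.60 ± 0.12 (edgeR adjusted p = 0.00117). Eya1 was lower at -0.62 ± 0.20 (edgeR adjusted p = 0.0182), a call that ended without bulk myoblast replicate 2 (adjusted p = 0.0795) or without differentiated replicate 1 (0.0659) or 3 (0.0835). Eya3 was higher by 0.38 ± 0.08 (edgeR adjusted p = 0.00173). Dach1 (-0.49 ± 0.54), Six2 (-0.94 ± 0.53), Six5 (0.66 ± 0.31) and Eya4 (-0.47 ± 0.25) did not pass. In a fit of these groups alone Six2 (adjusted p = 0.0452) and Eya4 (0.00189) did, and so did Eya4 without GFP+ MPC replicate 1 (0.0448). Members had a median of -0.55 and all tested genes one of -0.03.

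Bulk MPC and differentiated myoblasts, both rich in Myh3 RNA, differed in Dach1, Six2 and Eya1 by 3-fold or more. This comparison shares libraries with the preceding ones, so its calls are not independent of theirs. Of 8 members, 2 were higher and 2 lower in bulk MPC, where 43.8% of all tested genes passed, 24.4% higher and 19.4% lower. Eya1 was higher by 1.62 ± 0.20 (edgeR adjusted p = 3.9e-05), about 3.07-fold. Six2 was lower at -3.26 ± 0.64 (edgeR adjusted p = 0.00128). Dach1 had 3 counts in bulk MPC against 90 in differentiated myoblasts, 31.3-fold lower with a 95% counting interval of 10.4 to 155 (edgeR adjusted p = 0.000494), and at least 20.2-fold lower without bulk MPC replicate 2. Without bulk MPC replicate 1 its fitted value was -4.27 in place of -4.86. Six4 was higher by 0.34 ± 0.12 (edgeR adjusted p = 0.0409). The Six4 call did not hold with DESeq2, without the filter, with length-scaled counts or in a fit of these groups alone (adjusted p = 0.0522 to 0.0849), nor without bulk MPC replicate 2 (0.112) or 3 (0.121) or differentiated replicate 1 (0.173) or 3 (0.0888). It also ended without bulk myoblast replicate 1, 2 or 3 or GFP+ myoblast replicate 1 or 2 (0.0524 to 0.0540). Eya2 (-1.80 ± 0.85, adjusted p = 0.103), Eya3 (0.18 ± 0.08), Eya4 (0.56 ± 0.25) and Six5 (-0.13 ± 0.31) did not pass. Eya2 passed at -2.69 with protein-coding transcripts only (adjusted p = 0.0471). Eya4 passed in a fit of these groups alone (0.00128) or without GFP+ MPC replicate 1 (0.0273) or GFP+ myoblast replicate 3 (0.0393), and Eya3 without bulk MPC replicate 2 (0.0491). The median was 0.03 over members and 0.07 over all tested genes.

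**Figure D2:**
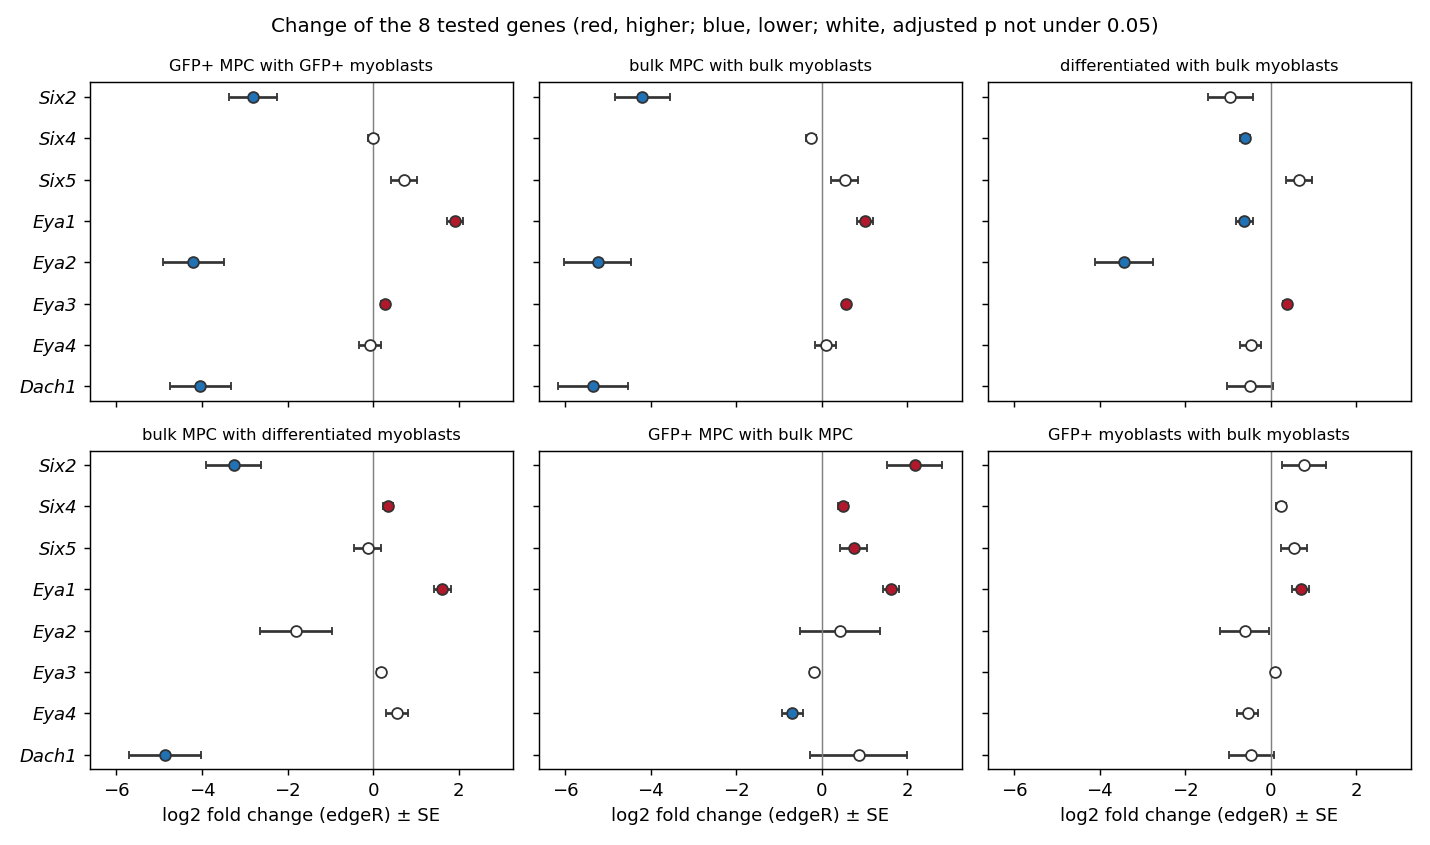
Log2 fold change from edgeR (points) with its standard error (whiskers) of the 8 tested members in 6 comparisons, the group named first over the group named second; red marks higher, blue lower and white an adjusted p not under 0.05. Eya1 is red in 5 of the 6 panels, and the Dach1 values of bulk MPC rest on 3 counts.

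Cells sorted for the Pax7 reporter had more Eya1 RNA than the unsorted culture, both in MPC and in myoblasts. GFP+ myoblasts were at passage 5 to 6 and bulk myoblasts at passage 3, so there sort and passage cannot be told apart, nor can they in the difference between the sort effects. In GFP+ MPC against bulk MPC, 4 of 8 members were higher and 1 lower, where 66.6% of all tested genes passed, 32.9% higher and 33.7% lower. Eya1 was higher by 1.62 ± 0.19 (edgeR adjusted p = 6.46e-06), Six2 by 2.17 ± 0.65 (edgeR adjusted p = 0.00898) and Six4 by 0.50 ± 0.12 (edgeR adjusted p = 0.00263). Six5 was higher by 0.74 ± 0.31 and passed by a small margin (edgeR adjusted p = 0.0471). With another scaling, without the filter, in a fit of these groups alone or without any one of 9 libraries it did not (adjusted p = 0.0529 to 0.23). Among these, its value fell to 0.44 without GFP+ MPC replicate 2. Eya4 was lower at -0.69 ± 0.25 (edgeR adjusted p = 0.0255). It was at -0.43 without GFP+ MPC replicate 1 (adjusted p = 0.0939), and did not pass without bulk MPC replicate 1 (0.0574) or 3 (0.0580) or in a fit of these groups alone (0.0575). Eya2 (0.43 ± 0.93) and Dach1 did not pass, with 7 Dach1 counts in GFP+ MPC against 3 in bulk MPC. Eya3 (-0.19 ± 0.08, adjusted p = 0.0612) did not pass either, but did with DESeq2 (0.0313), with the other scaling (0.0361) and without bulk MPC replicate 2 (0.0285) or GFP+ myoblast replicate 3 (0.0436), and at -0.54 with length-scaled counts (0.00197).

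Among GFP+ myoblasts and bulk myoblasts, 1 of 8 members was higher and 0 were lower, where 30% of all tested genes passed, 12.7% higher and 17.4% lower. That member was Eya1, at 0.70 ± 0.19 (edgeR adjusted p = 0.0158). Without bulk myoblast replicate 3 (adjusted p = 0.0794) or GFP+ myoblast replicate 2 (0.0521) the call ended. Six2 (0.78 ± 0.51), Six4 (0.25 ± 0.12), Six5 (0.55 ± 0.31), Eya2 (-0.61 ± 0.57), Eya3 (0.11 ± 0.08), Eya4 (-0.54 ± 0.25) and Dach1 (-0.45 ± 0.53) did not pass. Eya4 passed without GFP+ MPC replicate 1 (0.0451). The difference between the sort effects, MPC minus myoblast culture, was itself tested. For Eya1 it was 0.92 ± 0.27 (edgeR adjusted p = 0.0167), so GFP+ and unsorted cells differed more in the MPC culture. That was 1 of 8 members, higher, while 37.1% of all tested genes passed, 20.3% higher and 16.8% lower. For Six2 the difference was 1.39 ± 0.82 (adjusted p = 0.202), and 2.21 without GFP+ myoblast replicate 2 (0.0306). For Eya3 it was -0.29 ± 0.12 (0.0658), which passed at -0.35 under another scaling (0.0345), with DESeq2 (0.0156) and without bulk MPC replicate 2 (0.0347) or GFP+ myoblast replicate 2 (0.0393), and at -0.55 with length-scaled counts (0.0300).

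Eya1 made up a larger part of all Eya RNA in GFP+ MPC than elsewhere. Eya1 took 35% ± 8.84 of the summed Eya TPM in GFP+ MPC, 10.7% ± 1.72 in bulk MPC, 5.02% ± 1.53 in differentiated myoblasts, 12.1% ± 1.63 in GFP+ myoblasts and 6.79% ± 0.408 in bulk myoblasts (SD, n = 3 each). The lowest GFP+ MPC library, at 29.5%, lay above the highest GFP+ myoblast library, at 13.5%, and the high-passage library had 45.1%. Eya2 took 0.243% in GFP+ MPC, 0.243% in bulk MPC, 0.671% in differentiated myoblasts, 3.37% in GFP+ myoblasts and 5.63% in bulk myoblasts. With 3 libraries against 3, a two-sided exact permutation test of such shares cannot go below p = 0.1, so none is given. Within the Six-family genes, Six2 took 8.48% ± 4.41 of the TPM summed over Six2, Six4 and Six5 in GFP+ MPC, 2.94% ± 0.803 in bulk MPC, 24.9% ± 7.89 in differentiated myoblasts, 36.9% ± 16.8 in GFP+ myoblasts and 31.6% ± 5.93 in bulk myoblasts. Six4 made up most of the rest in each of these groups.

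**Figure D3:**
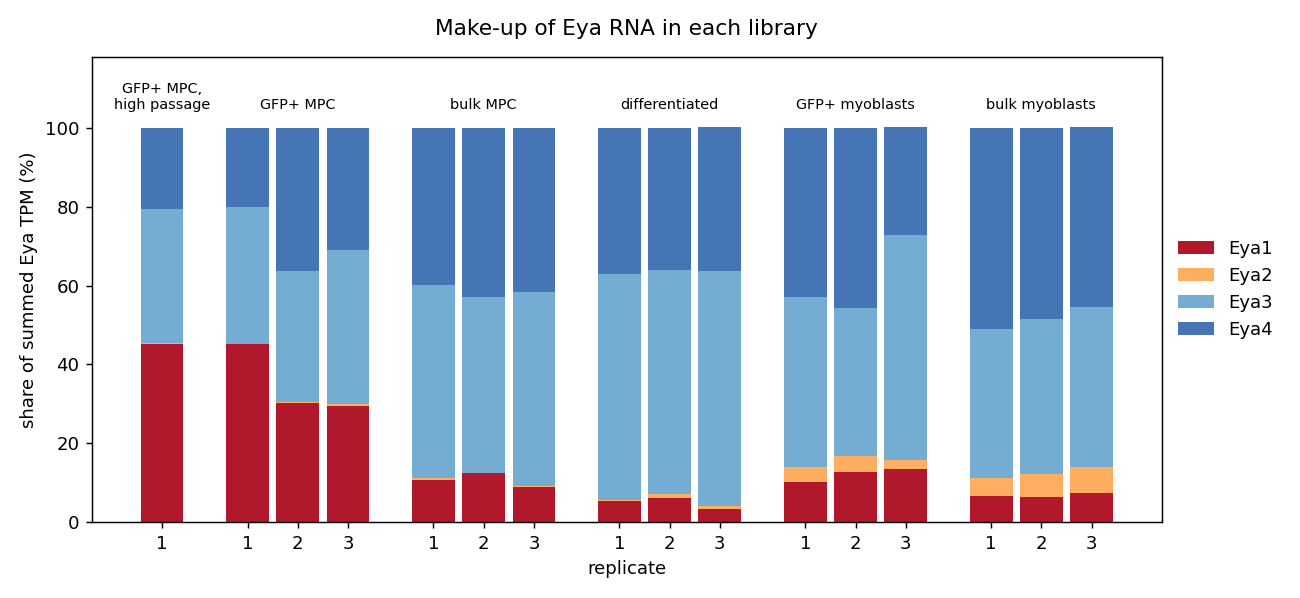
Share of each Eya gene in the summed Eya TPM (%) of each library, as stacked bars that start at 0, grouped by condition and numbered by replicate. The Eya1 share is 29.5% to 45.2% in GFP+ MPC and at most 13.5% in the other replicated groups.

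The share of one alternative Eya4 exon was higher in every sorted library than in every unsorted one. Eya4-208, the only quantified transcript with its exon, took 32.7%, 29.8% and 32.3% of the TPM of the Eya4 transcripts that hold either exon in GFP+ MPC. In bulk MPC it took 9.7%, 14.2% and 9.6%. Differentiated myoblasts had 17%, 16.1% and 16.8%, GFP+ myoblasts 33.6%, 33.2% and 27.9%, and bulk myoblasts 24.2%, 25.3% and 21.4%. The sorted groups overlapped each other, while bulk MPC, differentiated and bulk myoblasts lay apart from each other. The high-passage library had 29.8%. These shares come from estimated counts, and transcripts with either exon also differ in their last exon, 3326 bases in Eya4-202 against 1526 in Eya4-208. The files cannot say which of these differences the reads followed. Of another member, Eya3, the transcript Eya3-203 held 74.2% of estimated Eya3 counts in GFP+ MPC (lowest library 72.0%), 56.1% in bulk MPC, 53.0% in differentiated myoblasts, 65.0% in GFP+ myoblasts (highest 68.1%) and 62.7% in bulk myoblasts.

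**Figure D4:**
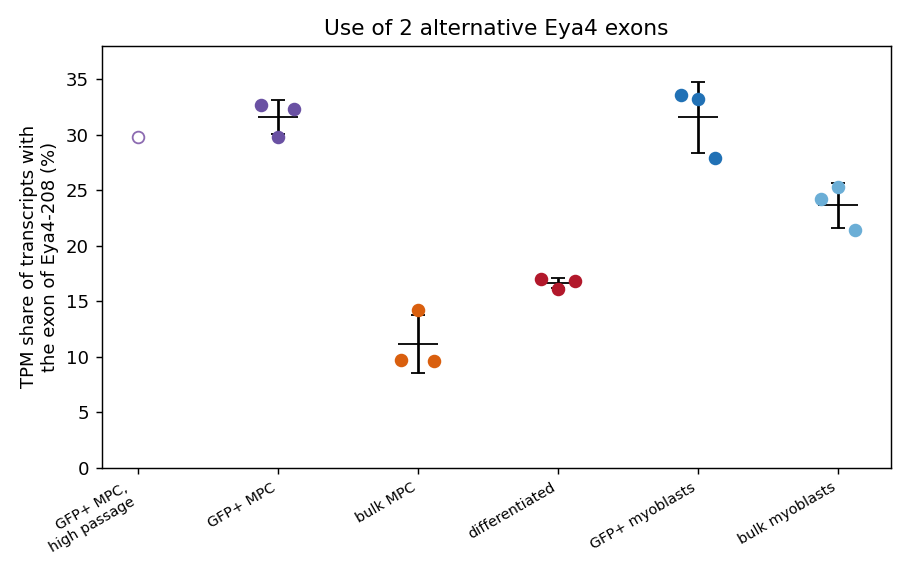
Share (%) of Eya4 TPM in transcripts with the exon of Eya4-208, out of those with either alternative exon, by group; points are libraries, bars and whiskers are the mean and SD of 3 replicates, and the open point is the high-passage library. Both sorted groups average 31.6%, against 11.2% in bulk MPC, 16.6% in differentiated myoblasts and 23.6% in bulk myoblasts.

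Genes whose products work with Six-family, Eya and Dach proteins were taken from a list of 15, all of which were tested. In GFP+ MPC against GFP+ myoblasts, 3 were higher and 5 lower, where 48.6% of all genes passed, and the median was 0.00 against 0.09 over all genes. Skil, which encodes the SnoN corepressor of TGF-beta signalling and belongs to the same protein superfamily as Dach, was lower at -4.01 ± 0.21 (edgeR adjusted p = 2.55e-08), at 8.14 ± 2.31 CPM in GFP+ MPC against 132 ± 5.40 CPM in GFP+ myoblasts (SD, n = 3 each). Sobp, the gene of a Six-binding protein, was higher by 1.99 ± 0.42, at 3.73 ± 2.68 CPM in GFP+ MPC against 0.931 ± 0.236 CPM in GFP+ myoblasts. Gnaz, which encodes an inhibitory G protein subunit of the kind that binds Eya2, was lower at -1.85 ± 0.46, at 0.449 ± 0.376 CPM in GFP+ MPC against 1.65 ± 0.143 CPM in GFP+ myoblasts. The Groucho corepressor genes Tle3 and Tle4 were higher by 0.82 ± 0.10 and 0.53 ± 0.18. All partner genes given with a fold change passed at an edgeR adjusted p of at most 0.0311.

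In bulk MPC against bulk myoblasts, 3 of 15 partners were higher and 7 lower, where 58.5% of all genes passed, with a median of -0.22 against -0.01. Sobp was higher by 3.27 ± 0.42 and Tle4 by 2.07 ± 0.18, while Skil was lower at -2.17 ± 0.19. Differentiated against bulk myoblasts had 4 higher and 7 lower, where 54.2% of all genes passed (median -0.41 against -0.03). Tle1 was lower there at -1.77 ± 0.21 and the histone gene H2ax, whose product Eya phosphatases act on, at -1.73 ± 0.14, while Sobp was higher by 1.76 ± 0.41 and Tle5 by 1.29 ± 0.22. Bulk MPC against differentiated myoblasts had 6 higher and 7 lower, where 43.8% of all genes passed (median -0.27 against 0.07), with H2ax at 1.91 ± 0.15, Sobp at 1.51 ± 0.39 and Gnaz at -1.47 ± 0.51. GFP+ MPC against bulk MPC had 9 higher and 4 lower, where 66.6% of all genes passed (median 0.44 against -0.01), with Skil at -1.98 ± 0.20, Tle4 at -1.87 ± 0.18 and Sobp at -1.75 ± 0.39 among those lower. GFP+ against bulk myoblasts had 4 higher and 1 lower, where 30% of all genes passed (median 0.09 against -0.02), with H2ax at 0.95 ± 0.14, the corepressor gene Sin3a at 0.65 ± 0.12 and Tle3 at -0.48 ± 0.10. The difference between the sort effects passed for 3 partners higher and 2 lower, where 37.1% of all genes passed (median 0.14 against 0.09).

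Reported targets of Six-family factors, 23 genes and all tested, moved in both directions between the MPC and myoblast cultures. In GFP+ MPC against GFP+ myoblasts, 12 were higher and 8 lower, where 48.6% of all genes passed, and the median was 0.43 against 0.09 over all genes. The fast myosin gene Myh4 was higher by 6.90 ± 1.00 and the creatine kinase gene Ckm by 4.53 ± 0.63, though Ckm averaged only 12.3 CPM in GFP+ MPC and 0.525 CPM in GFP+ myoblasts. Parvalbumin (Pvalb) averaged 2.90 CPM in GFP+ MPC, with 2 counts in GFP+ myoblasts. Muscle enolase (Eno3) was lower at -2.98 ± 0.22 and the membrane linker gene Ezr at -2.74 ± 0.21. In bulk MPC against bulk myoblasts, 12 were higher and 5 lower, where 58.5% of all genes passed (median 1.36 against -0.01). Pvalb was higher by 8.64 ± 0.69, Myh4 by 6.26 ± 0.81 and the myogenic factor gene Myf6 by 3.70 ± 0.40, while the hepatocyte growth factor receptor gene Met (-2.97 ± 0.32) and the homeobox gene Lbx1 (-2.61 ± 0.54) were lower. Differentiated against bulk myoblasts had 12 higher and 5 lower, where 54.2% of all genes passed (median 0.93 against -0.03). Pvalb was higher there by 4.15 ± 0.63 and Myh4 by 3.55 ± 0.71, while the cyclin gene Ccnd1 (-3.19 ± 0.27) and Met (-3.16 ± 0.33) were lower. Bulk MPC against differentiated myoblasts had 8 higher and 3 lower, where 43.8% of all genes passed (median 0.39 against 0.07). Pvalb was higher there by 4.50 ± 0.54 and Myh4 by 2.71 ± 0.69, while Lbx1 (-3.54 ± 0.55) and the myogenic factor gene Myod1 (-1.02 ± 0.27) were lower. All targets given with a fold change passed at an edgeR adjusted p of at most 0.0187.

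GFP+ MPC against bulk MPC had 3 of the 23 targets higher and 17 lower, where 32.9% of all genes were higher and 33.7% lower (median -2.68 against -0.01). Myh4 was at -7.25 ± 0.85, Pvalb at -6.87 ± 0.62 and Ckm at -6.09 ± 0.55, whereas Met (2.22 ± 0.32) and Myf5 (1.76 ± 0.27) were higher. GFP+ against bulk myoblasts had 2 higher and 14 lower, where 12.7% of all genes were higher and 17.4% lower (median -1.08 against -0.02). Myh4 was at -7.88 ± 1.01, Ckm at -7.38 ± 0.65 and the troponin gene Tnnc2 at -6.46 ± 0.43, and Myf5 (1.17 ± 0.27) and Met (1.05 ± 0.30) were higher. Several of these targets, such as Myh4 and Tnnc2, are sarcomere genes of differentiating cells, whose markers summed to 516 to 1190 CPM in GFP+ MPC, 35200 to 46500 in bulk MPC, 41900 to 47500 in differentiated myoblasts, 284 to 448 in GFP+ myoblasts and 13000 to 18300 in bulk myoblasts. Their part in the counts was not tested. Myogenin (Myog), whose promoter is shown above, was at 105 ± 48.9 CPM in GFP+ MPC, 947 ± 110 in bulk MPC, 995 ± 29.7 in differentiated myoblasts, 95.5 ± 58.7 in GFP+ myoblasts and 1110 ± 167 in bulk myoblasts (SD, n = 3 each). Among the 7 comparisons Myog passed only in GFP+ against bulk cells, at -3.19 ± 0.46 in the MPC culture and -3.54 ± 0.47 in the myoblast culture. The difference between the sort effects passed for 1 target higher and 4 lower, where 37.1% of all genes passed (median -0.06 against 0.09).

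**Figure D5:**
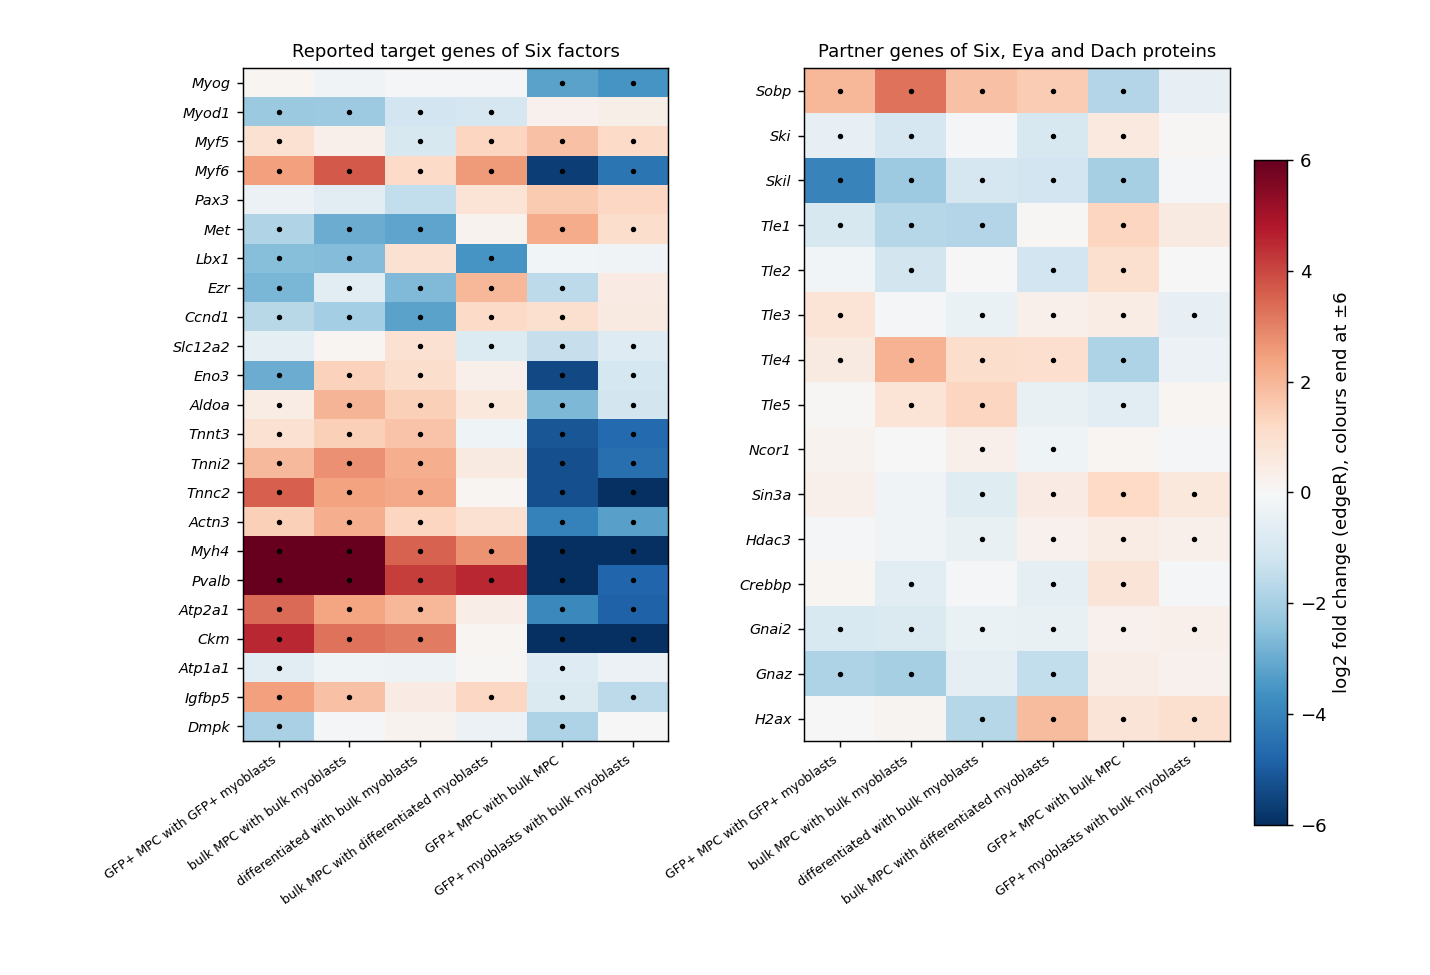
Log2 fold change from edgeR (colour, red higher and blue lower in the group named first, ending at 6 on either side) of 23 reported Six-family targets and 15 partner genes in 6 comparisons; a dot marks an adjusted p under 0.05. Of the targets, 17 are lower in GFP+ MPC than in bulk MPC and 14 are lower in GFP+ than in bulk myoblasts; the Pvalb values of GFP+ myoblasts rest on 2 counts.

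Over the 15 replicated libraries, the genes with the most similar profile were found by the root mean square difference of centred log2 CPM, among 11171 protein-coding genes. Eya1 was closest to the kinesin gene Kif21a, with a difference of 0.294, then Nt5dc2 (0.343) and Pcbp3 (0.361), where the Eya1 profile itself had a spread of 1.116. Kif21a averaged 72.0 CPM in GFP+ MPC, 22 in bulk MPC, 7.71 in differentiated myoblasts, 16.8 in GFP+ myoblasts and 14.4 in bulk myoblasts. Eya2 was closest to Ak5 (0.757), Runx2 (0.826) and Ccnd2 (0.850), with an own spread of 2.136. Runx2, a factor of bone formation, averaged 3.27 CPM in GFP+ MPC, 4.12 in bulk MPC, 7.83 in differentiated myoblasts, 117 in GFP+ myoblasts and 74.7 in bulk myoblasts. For Six2 the closest were Slc35f1 (0.622), Slc4a11 (0.672) and Ntn4 (0.676), for Six4 they were Ssb (0.090), Nup214 (0.113) and Gdi2 (0.114), for Eya3 they were Zfp318 (0.084), Ccdc127 (0.085) and Vps26b (0.087), and for Eya4 they were Zfp521 (0.251), Fam8a1 (0.260) and Adprm (0.281). Six5, Dach1 and Dach2 stayed below 5 CPM in every group mean and were not searched.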

How the data were processed

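The deposited files give, per the file headers, the estimated counts, TPM, length and effective length (an other unit, in bases) of each transcript. Reads were processed by the authors with fastp 0.20.0 and kallisto 0.46.1 on GRCm39, per the submitters' processing notes. Estimated counts and TPM were summed per gene with GENCODE M21, used for names and transcript models only because it is on another build; 1059 of 121798 transcripts had no match (0.478% to 1.054% of counts). Gene sums were rounded and tested with edgeR 4.0.16 (quasi-likelihood, TMM, filterByExpr with minimum count 10 and total 15) in a single fit of 15 libraries and 5 groups. This left 15533 genes and 10 residual degrees of freedom, with Benjamini-Hochberg adjustment over all of them and a threshold of 0.05. Standard errors come from the F statistic. CPM levels use TMM factors computed over all 16 libraries. The high-passage library was described only. The fit was tested on simulated data.

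The members, the gene lists and the naming rule were chosen with earlier results of these data known. The rule named, for each list and comparison, up to 3 called genes with the largest change and up to 2 against the majority, and the 3 genes most alike each member at 5 CPM or more (prior 0.1 CPM). H2ax and Tle5 are named H2afx and Aes in GENCODE M21 and were matched through RefSeq synonyms, and of 2 Aldoa rows the higher was used. In 1 of 10 pairs of groups, bulk MPC with bulk myoblasts, all 3 same-numbered pairs of libraries had deviations that correlated above 0.1. They correlated at 0.131 to 0.163 and the others at -0.141 to -0.019. That count depends on the cut of 0.1. Between bulk MPC and GFP+ MPC the same-numbered pairs also lay above the others, at 0.033 to 0.042 against -0.043 to 0.012. Same-numbered libraries of different groups share a name prefix, but the labels do not state a pairing. The main fit used none.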

Additional observations from a re-analysis of the deposited data

Results flagged for a closer look

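For 11 of the 46 tested members, partners and targets (23.9%, against 37.1% of all tested genes) the difference between GFP+ and unsorted cells was not the same in MPC and in myoblasts, by the edgeR test of the difference itself (log2, MPC minus myoblast culture, ± SE). Eya1 had the larger difference in the MPC culture, by 0.92 ± 0.27 (adjusted p = 0.0167, higher in 3 of 3 sorted libraries in each culture). Among partner genes the difference was 0.83 ± 0.13 for Crebbp, 0.92 ± 0.14 for Tle3, 0.53 ± 0.18 for Sin3a, -1.54 ± 0.25 for Tle4 and -1.84 ± 0.27 for Skil (adjusted p from edgeR at most 0.0293). Among reported targets it was 1.17 ± 0.43 for Met, -1.83 ± 0.30 for Dmpk, -1.61 ± 0.23 for Aldoa, -2.07 ± 0.29 for Ezr and -4.34 ± 0.30 for Eno3 (adjusted p from edgeR at most 0.0447). Dmpk, Ezr, Skil and Tle4 did not pass between GFP+ and bulk myoblasts but were lower in GFP+ MPC than in bulk MPC. Crebbp did not pass in myoblasts either but was higher in GFP+ MPC than in bulk MPC. Tle3 was higher in GFP+ MPC than in bulk MPC (0.44 ± 0.10) and lower in GFP+ than in bulk myoblasts (-0.48 ± 0.10). GFP+ and bulk myoblasts also differ in passage, which cannot be told apart from the sort.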

How the results depend on the processing

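Over the members' fold changes, leaving out 1 library at a time kept the call, or its absence, in 801 values. It lost the call in 27 and gained it in 12. No value that was called in either fit changed direction. Values without a call in both fits count among the 801 whatever their direction. Counts of members called then ran over 4 to 6 for GFP+ MPC with GFP+ myoblasts, 5 to 6 for bulk MPC with bulk myoblasts, 3 to 5 for differentiated with bulk myoblasts, 3 to 5 for bulk MPC with differentiated myoblasts, 3 to 6 for GFP+ MPC with bulk MPC, 0 to 2 for GFP+ with bulk myoblasts and 1 to 3 for the difference between sort effects. Genes called for GFP+ with bulk myoblasts ran over 2719 to 5115, lowest without bulk myoblast replicate 3. For the difference between sort effects 2 members passed under RLE scaling, DESeq2 and length-scaled counts, and for GFP+ MPC with bulk MPC 3 passed in a fit of those groups alone. Eya3 between GFP+ MPC and GFP+ myoblasts was 0.00 with length-scaled counts; the cause was not tested. Means in TPM placed 13 of 40 levels differently from means in CPM, scales that differ in the TMM adjustment as well as in length. Over all groups same-numbered libraries had correlations of deviations of -0.166 to 0.209 (30 pairs, above 0.1 in 8), and all 3 were above 0.1 only for bulk MPC with bulk myoblasts. With the replicate number as a block, Six4 passed between bulk MPC and bulk myoblasts (-0.27, adjusted p = 0.0485), Eya3 passed (-0.18, 0.0490) and Six5 was lost (0.74, 0.0552) between GFP+ MPC and bulk MPC. Depth limits Dach1, Dach2 and Eya2 in MPC, where counts per library were 14 or fewer.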
